A study of Mus musculus with 10 samples.

Results

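Cluster 6 was a group of 25 neurons among the 706 cells that the authors kept and clustered after picking cells from the mouse paraventricular hypothalamus (PVH), and the authors set it aside, with clusters 5 and 11, as lying outside the PVH types. Its members were taken from the deposited cell table by their cluster number. They were compared with the 664 cells of the 12 PVH clusters, numbered 1 to 4, 7 to 10 and 12 to 15. The 25 cells came from 7 of the 10 plates, with 5 cells each on plates Q5, Q6 and Q7, 3 on JM6, 4 on JM8, 2 on Q8 and 1 on AL5, and none on AL6, JM5 and JM7.

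All cells came from male *Agrp*-IRES-Cre × Ai9 mice over 7 weeks old, in which Cre driven from the *Agrp* locus switches on the red fluorescent protein tdTomato, and no treatment or second genotype was compared. The labels describe the picked cells as tdTomato-labelled neurons, whereas the methods used labelled AGRP axons to outline the PVH, and *Agrp* itself had no unique molecular identifier (UMI) in any of the 25 cells. Cells were taken one by one from slices held in blockers of neuronal activity and pronase, and barcoded cDNA was pooled by plate before amplification (Smart-SCRB). The plate was the replicate, since neither the labels nor the methods say which animals a plate held, so that the p-values below measure the spread between plates, and differences between plates and between animals cannot be told apart.

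Neurons that release γ-aminobutyric acid (GABA) make it from glutamate with the glutamic acid decarboxylases encoded by *Gad1* and *Gad2* and load it into vesicles with the transporter encoded by *Slc32a1* (Vgat). In the embryonic forebrain, homeobox factors of the Dlx family mark the lineage of such neurons. Neurons of the PVH are, by contrast, mostly glutamatergic, use the vesicular glutamate transporter Vglut2 (*Slc17a6*) and descend from progenitors that require *Sim1* and *Otp*, and GABAergic neurons lie in a shell around the nucleus and in neighbouring hypothalamic areas.

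A pair of loci show how marker genes of the cluster sit beside noncoding neighbours that were counted in the same cells. In the GRCm38 annotation, *Slc32a1* (ENSMUSG00000037771, chr2:158610767-158615748, plus strand) and the processed transcript *Gm14204* (ENSMUSG00000086496, chr2:158595472-158610723, minus strand) point away from each other with 43 bases between them. *Lhx1* (ENSMUSG00000018698, chr11:84518284-84525535, minus strand) and the lincRNA *Lhx1os* (ENSMUSG00000087211, chr11:84525660-84535831, plus strand) do the same with 124 bases between them. The 250 bases before the start of each protein-coding gene are shown from RefSeq (GRCm38.p6), read along the strand of that gene, with the bases that lie in an annotated exon of the noncoding neighbour in capitals. The first window is chr2:158610508-158610757 (plus strand), with 196 of 250 bases in an exon of *Gm14204*, and the second is chr11:84525535-84525784 (minus strand), with 89 of 250 bases in an exon of *Lhx1os*.
*Slc32a1*: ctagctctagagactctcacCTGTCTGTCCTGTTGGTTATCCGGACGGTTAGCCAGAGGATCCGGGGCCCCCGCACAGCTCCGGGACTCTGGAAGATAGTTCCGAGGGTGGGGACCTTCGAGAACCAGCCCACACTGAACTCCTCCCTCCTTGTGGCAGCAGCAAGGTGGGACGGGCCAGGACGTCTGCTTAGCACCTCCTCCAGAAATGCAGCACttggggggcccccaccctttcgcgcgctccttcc
*Lhx1*: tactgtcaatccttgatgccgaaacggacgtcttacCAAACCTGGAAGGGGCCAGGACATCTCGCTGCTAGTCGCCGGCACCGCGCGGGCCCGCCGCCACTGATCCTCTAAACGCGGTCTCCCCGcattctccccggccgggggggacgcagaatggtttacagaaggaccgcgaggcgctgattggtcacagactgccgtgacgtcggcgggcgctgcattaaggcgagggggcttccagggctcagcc
Their GC contents were 62.4% and 64.8%, against a median of 52.4% over 32851 such windows (5th to 95th percentile, 34.8% to 73.6%). Whether the counting kept the strands apart is not given in the sources used here, and a minus-strand gene, *Gm14205*, also overlaps *Slc32a1*.

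Before values are compared between plates, their depth has to be stated. The 25 cells held 54947 to 386383 UMIs (median 150672) and 3451 to 5855 detected genes (median 4429), and the PVH cells had medians of 130107 UMIs and 5255 genes. From the spike-in RNAs, 1 captured molecule was estimated to give 23.0 to 32.5 UMIs on the Q plates and 4.82 to 10.9 on the AL and JM plates, so that a few UMIs on a Q plate can come from a single molecule. A count of at least 3 UMIs is therefore given beside detection by at least 1 UMI. No pair of the 25 cells had identical counts, the closest pair differing at 5141 genes, and no cell name occurred on more than 1 plate.

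The deposited cell table gives the cluster by number only, and its GABA markers are counted here without a test. *Gad2* was found in 24 of the 25 cells (96%, exact Clopper-Pearson 95% interval 79.6% to 99.9%, counting error only), *Gad1* in 21 (84%, 63.9% to 95.5%) and *Slc32a1* in 12 (48%, 27.8% to 68.7%). In the 664 PVH cells they were found in 93 (14%), 4 (0.602%) and 0 cells, and 0 of 664 allows a share of up to 0.452%. With at least 3 UMIs, 24 of the 25 cells held at least 1 of these markers, 20 held at least 2 and 7 held all 3. In the cells past that limit *Gad2* ranged from 9 to 433 UMIs (median 93), *Gad1* from 3 to 118 (median 31) and *Slc32a1* from 3 to 14 (median 8). *Slc32a1* was thus the sparsest of the markers, and its neighbour *Gm14204* was counted more often, with 505 UMIs against 73 over the 25 cells. *Gm14204* reached 3 UMIs in 10 cells and *Slc32a1* in 9, but both did so in only 3 cells, and either did in 16.

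The 25 cells were neurons by their transcripts. *Snap25*, *Stmn2* and *Tubb3* were found in all 25, *Syt1* in 24 and *Rbfox3*, which encodes the neuronal nuclear antigen NeuN, in 18 (73.6% of PVH cells). *Slc17a6* had no UMI in any cell, which allows a share of up to 12%, against 534 of 664 PVH cells (80.4%). *Sim1* was found in 1 cell, with 1 UMI, against 398 PVH cells (59.9%). *Otp* was found in 5 cells but reached 3 UMIs in 1 of them, against 627 PVH cells (94.4%). The markers of astrocytes, microglia, oligodendrocyte precursors and endothelium checked here (*Aqp4*, *Gfap*, *Slc1a3*, *Ctss*, *Aif1*, *Cx3cr1*, *Olig2*, *Pdgfra*, *Opalin*, *Cldn5* and *Pecam1*) had no UMI in the cluster. *Mbp*, a myelin gene, was the exception and reached 3 UMIs in 11 of 25 cells and in 164 of 664 PVH cells (24.7%).

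Transcription factors of the forebrain GABA lineage were seen in nearly all of the cells. At least 1 of *Dlx1*, *Dlx2*, *Dlx5* and *Dlx6* reached 3 UMIs in 24 cells. *Dlx1* did so in 22 cells, with 4 to 124 UMIs (median 36), and in no PVH cell, and *Dlx5* in 12, *Dlx2* in 8 and *Dlx6* in 7. *Dlx1* and *Dlx6* overlap antisense genes (*Dlx1as* and *Dlx6os1*), so that their counts and those of the antisense genes may not be separable. *Six6*, a homeobox gene of the developing hypothalamus and retina, reached 3 UMIs in 19 cells (3 to 165 UMIs, median 52) and in no PVH cell, and 17 of these 19 cells also held *Dlx1*. *Lhx1os* reached 3 UMIs in 15 cells and *Lhx1*, a LIM homeobox gene, in 8, of which 7 held both.

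**Figure D1:**
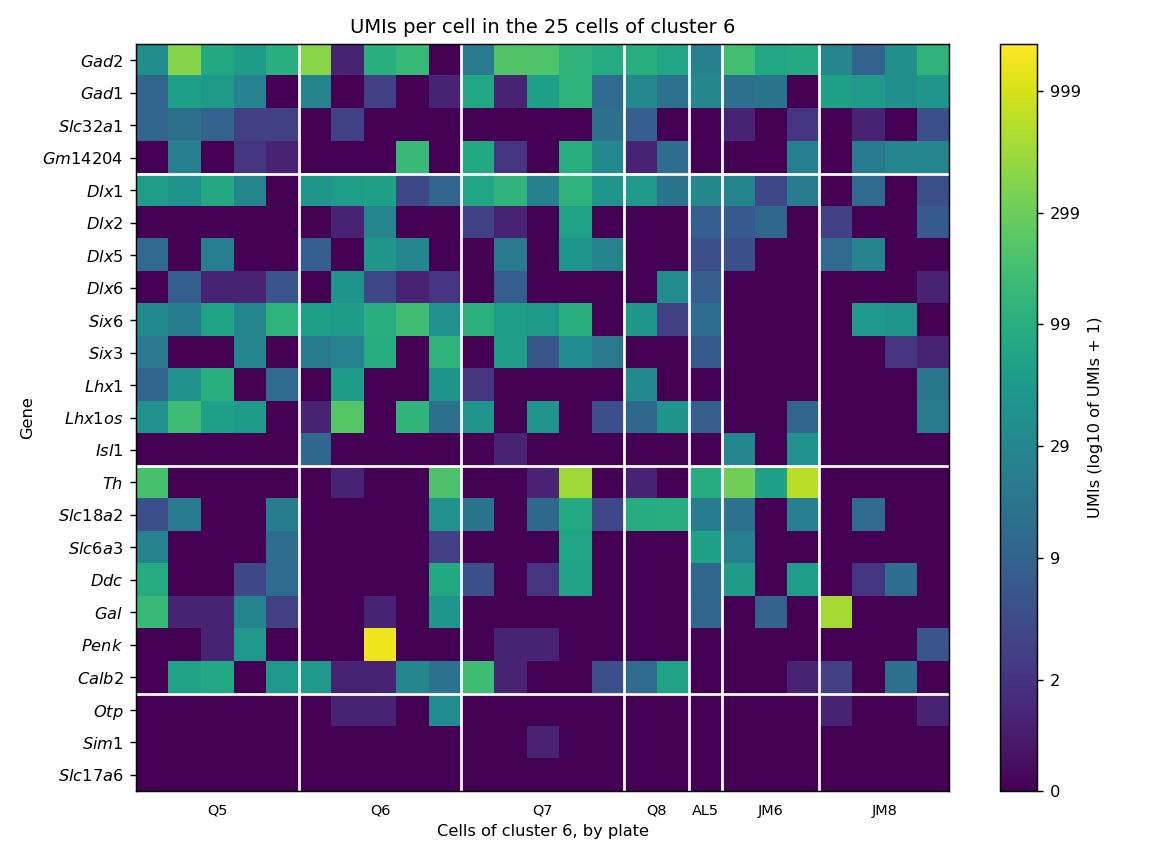
UMIs of 23 genes (rows) in each of the 25 cells of cluster 6 (columns, ordered by plate), on a log colour scale of UMIs + 1 whose ticks are written as UMIs. White lines divide the plates and the groups of genes: *Gad2* and *Dlx1* fill most columns, *Six6* is empty in the 3 cells of JM6, *Th* and the dopamine genes fill a minority, and *Slc17a6* is empty throughout.

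The cluster was not uniform. Tyrosine hydroxylase (*Th*), which makes the dopamine precursor, reached 3 UMIs in 7 of the 25 cells, where it ranged from 66 to 741 UMIs (median 200), and these were 1 cell each on Q5, Q6, Q7 and AL5 and all 3 cells of JM6. Of the 7, 6 also held the vesicular monoamine transporter *Slc18a2*, 6 the decarboxylase *Ddc* and 5 the dopamine transporter *Slc6a3*. *Slc18a2* was more widely spread and reached 3 UMIs in 14 cells, 8 of them without *Th*, and in 7 of 664 PVH cells. *Th* by itself did not set the cluster apart, since 270 PVH cells (40.7%) held it.

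Calretinin (*Calb2*), a calcium-binding protein, reached 3 UMIs in 12 cells, 10 of them on Q plates, and only 1 cell held both *Calb2* and *Th*. Neither gene reached 3 UMIs in 7 cells. Single cells carried peptide genes at high levels: 1 cell of Q6 had 1298 UMIs of proenkephalin (*Penk*) and 1 cell of JM8 had 583 UMIs of galanin (*Gal*). The 3 cells of JM6 had no UMI of *Six6*, *Six3* or *Lhx1*, and 2 of them held the LIM homeobox gene *Isl1* (30 and 43 UMIs) and *Meis2* (33 and 21). *Isl1* reached 3 UMIs in 1 further cell, on Q6.

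In 1 cell, on Q6, no GABA marker reached 3 UMIs. It had 1 UMI of *Gad1* and none of *Gad2* and *Slc32a1*, but 40 of *Six6*, 44 of *Lhx1*, 14 of *Lhx1os*, 10 of *Dlx1* and 200 of *Th*. It was also the cell with 34 UMIs of *Otp*, and with 559 UMIs of *Oxt* it held more oxytocin transcript than the other 24 cells, which had at most 105. Whether this well held RNA of more than 1 cell was not tested. Without it, 47 genes were higher and 1400 lower than in the PVH clusters in the test described below, against 50 and 1145 with it, and 46 of the 50 and 1138 of the 1145 were shared.

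The GABA enzyme *Gad2* was not confined to cluster 6, and its company differed. Of the 664 PVH cells 70 held at least 3 UMIs of *Gad2*, with a median of 344 CPM (UMIs scaled to the gene UMIs of the cell or sum) and a range from 22.9 to 1582. They included 15 of the 16 cells of cluster 13, 16 of 60 in cluster 15, 12 of 57 in cluster 14, 12 of 62 in cluster 10 and 9 of 221 in cluster 1. The 23 *Gad2* cells of cluster 6 had a median of 602 CPM (49.2 to 1957), and both ranges overlapped. Among the 70 PVH cells, 1 also held *Gad1*, none held *Slc32a1*, *Dlx1* or *Six6*, 50 held *Slc17a6* and 62 held *Otp*. Among the 23 cells of cluster 6, 19 held *Gad1*, 8 *Slc32a1*, 20 *Dlx1* and 17 *Six6*, and none held *Slc17a6* or *Otp*. The clusters were built from these genes among others, so these counts describe the cells and are not tested.

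**Figure D2:**
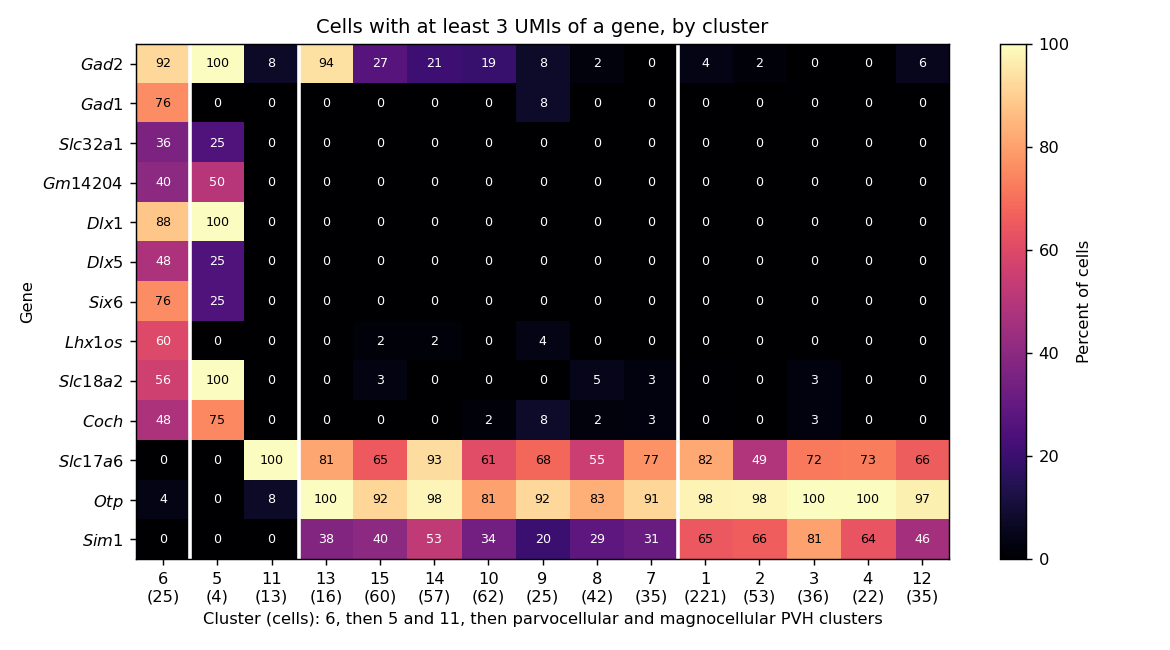
Percent of cells with at least 3 UMIs of each gene (rows) in each cluster (columns, with the number of cells in brackets), cluster 6 first, then clusters 5 and 11, then the parvocellular and the magnocellular PVH clusters, divided by white lines. *Gad2* is shared with clusters 5 and 13, whereas *Gad1* reaches 76% in cluster 6 and at most 8% elsewhere, and *Slc17a6* and *Otp* are at 0% and 4% in cluster 6.

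Cluster 5, with 4 cells, was the nearest neighbour by these genes. All 4 of its cells held *Gad2*, *Dlx1*, *Six3*, *Th*, *Slc18a2*, *Slc6a3* and *Ddc*, and 1 each held *Six6* and *Slc32a1*, while *Gad1* was in none. In cluster 6 *Gad1* reached 3 UMIs in 19 of 25 cells and *Slc6a3* in 6. With 4 cells, 0 of *Gad1* is a weak limit, and no test was made between clusters 5 and 6. Cluster 11, also set aside by the authors, was of another kind, with *Slc17a6* and *Calb2* in all 13 of its cells.

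To ask which genes differed between cluster 6 and the PVH clusters beyond the spread between plates, UMIs were summed per plate over the cells of each side on the 5 plates with at least 3 cells of cluster 6 (22 cells of cluster 6 and 351 PVH cells, of which 175 belonged to the magnocellular clusters). Both sums of a plate were paired in the fit (edgeR, quasi-likelihood, plate as a block). Of 12906 genes tested, 50 were higher in cluster 6 (0.387%) and 1145 lower (8.87%) at an adjusted p of 0.05, or 9.26% in all. The clusters had been formed from the expression of these same cells, so a small p grades the spread over plates and is no independent evidence that the cluster exists. In such sums, fewer cells with a transcript and less transcript per cell cannot be told apart.

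The number of lower genes depended on the counts used. Of the 1145, 799 had 0 UMIs in all 5 sums of cluster 6, which hold about 165322 captured molecules in all. A gene at 0 there can have a level of up to 18.1 CPM (3 molecules over the 5 sums), so many of these differences are not measurable in size. On UMIs divided by the estimated UMIs per molecule of the plate, 39 genes were higher (0.514%) and 370 lower (4.88%) of 7584 tested (5.39% in all), 14 of the 370 at 0, and 30 and 262 were shared with the main test. With limma-voom and weights for the quality of the sums, 42 were higher (0.325%) and 276 lower (2.14%), 2.46% in all. By all 3 tests together 22 genes were higher and 80 lower. Against the parvocellular clusters alone, 14 of the 50 and 30 of the 1145 remained. Leaving out plate JM8 left 25 higher and 81 lower genes, and leaving out Q5, Q6, Q7 or JM6 left 31 to 38 higher and 119 to 161 lower.

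*Gad2* and *Gad1* were higher on all 5 plates, and *Slc32a1* passed the test with few molecules behind it. *Gad2* was at 781, 650, 599, 1479 and 776 CPM in cluster 6 on Q5, Q6, Q7, JM6 and JM8, and at 17.2, 19.5, 33.2, 39.6 and 41.1 CPM in the PVH cells of these plates. The lowest value of cluster 6 was well above the highest of the PVH cells, and the difference was 4.57 on the log2 scale (SE 0.27, edgeR adjusted p = 5.33e-34). *Gad1* was at 170, 28.8, 252, 131 and 819 CPM, against at most 1.07 CPM in the PVH cells (edgeR adjusted p = 0.0343), whose mean of 0.354 CPM lay under the floor of 3 molecules in the PVH sums, so that no fold is given. *Slc32a1* was at 44.2, 2.88, 12.9, 13.1 and 23.9 CPM and had no UMI in the PVH sums. Its 2.88 CPM on Q6 were 3 UMIs of 1 cell, on a plate with 30.7 UMIs per molecule. Its mean over the plates, 19.4 ± 15.7 CPM (SD, n = 5), passed the test (edgeR adjusted p = 0.000503). That mean lay close to the floor of 18.1 CPM in the cluster 6 sums, so no fold is given. *Slc32a1* had too few estimated molecules to be tested on that scale. *Gad1* did not pass without plate JM6, against the parvocellular clusters alone or with either of 2 other scalings of the libraries, and *Slc32a1* did not pass on the Q plates alone. No other tested gene of GABA synthesis and transport passed. *Abat*, which breaks GABA down, was at 209 ± 163 CPM in cluster 6 and 111 ± 16.8 CPM in the PVH cells (edgeR adjusted p = 0.638). Of the 9 tested genes of this list 3 were higher and none lower, with a median log2 difference of 0.80 beside -1.22 over all genes tested. The shares over all genes tested were 0.387% higher and 8.87% lower. *Slc32a1* passed the filter on low counts through the cluster 6 sums, so its place in the count of higher genes follows in part from the filter.

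Some transcription factors of the GABA lineage were also higher. Of 43 listed factors of GABAergic lineages 29 were tested, and 8 were higher (among them *Dlx1*, *Dlx2*, *Dlx5*, *Dlx6*, *Isl1*, *Lhx1* and *Six6*) and 2 lower (*Foxp2* and *Nr2f1*), while 19 did not pass. The median log2 difference of the list was -0.14, beside -1.22 over all genes. Higher genes made up 0.387% and lower genes 8.87% of all genes tested. *Dlx2*, *Dlx5*, *Dlx6*, *Isl1* and *Lhx1* had too few estimated molecules to be tested on that scale. In the PVH sums *Dlx2*, *Dlx5* and *Isl1* had 0 UMIs, *Dlx6* 1, *Lhx1* 2, *Six6* 3 and *Dlx1* 4. These genes passed the filter on low counts through the cluster 6 sums, so being tested and being higher went together for them. The count and the median of this list therefore cannot be weighed against those of all genes tested. *Dlx1* was at 246, 184, 355, 231 and 67.6 CPM on Q5, Q6, Q7, JM6 and JM8 and at 0 to 0.212 CPM in the PVH cells (edgeR adjusted p = 1.99e-22). *Dlx5*, at 39.7, 83.5, 85.7, 21.8 and 151 CPM, had no UMI in the PVH sums. Its mean of 76.4 ± 50.1 CPM (SD, n = 5) was 97.5 times the PVH floor of 0.783 CPM (edgeR adjusted p = 1.85e-06). *Six6* was at 303, 408, 304 and 382 CPM on Q5, Q6, Q7 and JM8 and at 0 on JM6 (edgeR adjusted p = 4.88e-28). It was thus high on 4 plates and empty on 1. *Isl1* was at 0, 10.6, 0.922, 318 and 0 CPM, and its UMIs on JM6 lay in 2 cells.

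Both noncoding neighbours were also higher. *Gm14204* was at 29.5, 135, 206, 100 and 306 CPM and at most at 0.102 CPM in the PVH cells (edgeR adjusted p = 3.97e-14). *Lhx1os* was at 362, 349, 89.4, 43.6 and 79.6 CPM, against 0 to 3.39 CPM in the PVH cells (edgeR adjusted p = 4.93e-05). *Lhx1* itself was at 186, 96.9, 1.84, 0 and 67.6 CPM (edgeR adjusted p = 0.00135), higher on 4 of 5 plates. *Lhx1os* did not pass without JM6 or without JM8.

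Genes of dopamine handling were among the higher genes. Of 6 tested genes of monoamine and acetylcholine synthesis 3 were higher, namely *Slc18a2*, *Ddc* and *Slc6a3*, and *Nos1*, which encodes neuronal nitric oxide synthase and was kept in this list, was lower. Over all tested genes, 0.387% were higher and 8.87% lower. *Slc6a3* had too few estimated molecules to be tested on that scale. With 10 UMIs in the PVH sums, it passed the filter on low counts through the cluster 6 sums. *Slc18a2* was at 52.1, 39.3, 111, 166 and 47.7 CPM against 2.24, 0, 0.245, 5.93 and 0.139 CPM (log2 difference 6.93, SE 1.54, edgeR adjusted p = 0.00190), but did not pass against the parvocellular clusters alone. *Ddc* was at 127, 82.5, 70.0, 515 and 59.7 CPM against 10.4 to 28.3 CPM (log2 difference 2.44, SE 0.71, edgeR adjusted p = 0.0343). It was not particular to cluster 6 among the clusters that the PVH sums pool. As means over cells *Ddc* was at 178 CPM in cluster 9, 125 in cluster 6 and 0 in cluster 2. It reached 3 UMIs in 20 of 25 cells of cluster 9 and 10 of 25 of cluster 6. *Th* did not pass. It was at 211, 193, 515, 4907 and 0 CPM in cluster 6 and at 75.2 to 216 CPM in the PVH cells, and its sums overlapped (log2 difference 0.69, SE 1.41, edgeR adjusted p = 0.820).

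**Figure D3:**
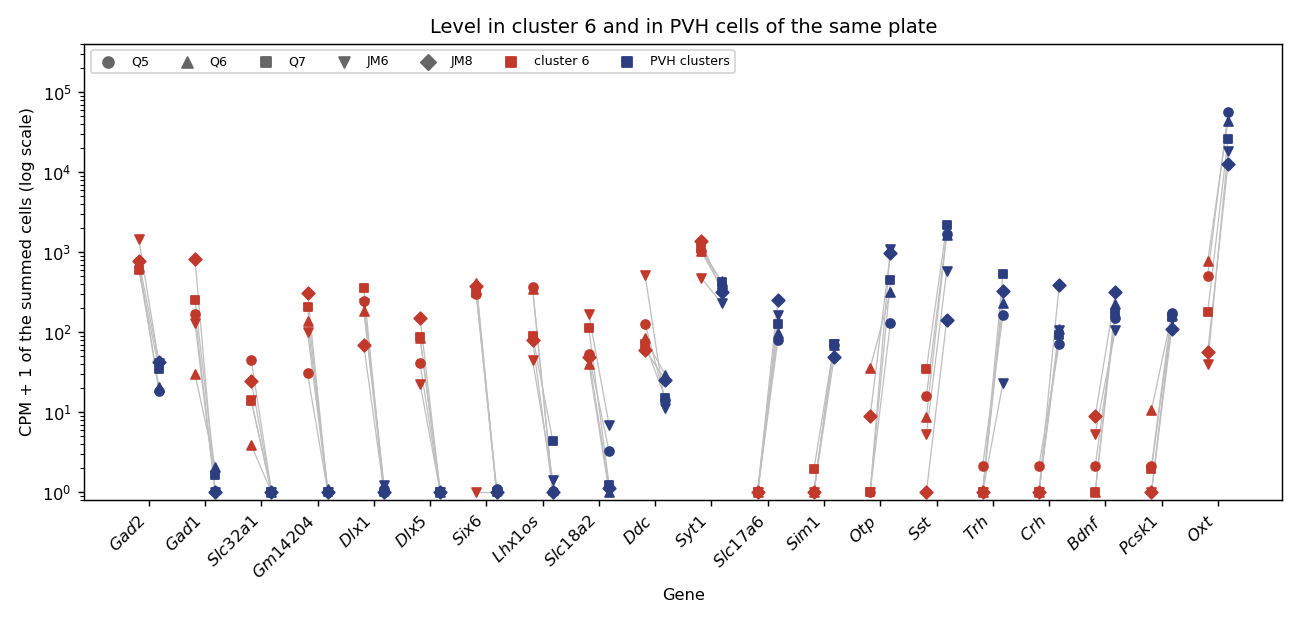
CPM + 1 of the summed cells (log scale) of 20 genes in cluster 6 (red) and in the PVH cells (blue) of the same plate, with a marker shape for each of the 5 plates and a grey line joining both sides. *Gad2* to *Syt1* lie higher in cluster 6 on all 5 plates except *Six6*, which is at 0 on JM6, though *Slc32a1* rests on 3 UMIs on Q6, and *Slc17a6* to *Oxt* lie lower on all 5.

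Among the other higher genes were some of synaptic function. Of 32 tested genes of vesicle fusion and release 2 were higher, the calcium sensor *Syt1* and the small GTPase *Rab3b*, and *Sv2b*, at 0 in cluster 6, was lower. Among all tested genes 0.387% were higher and 8.87% lower. *Syt1* was at 1023, 1019, 1112, 475 and 1384 CPM against 356, 432, 422, 228 and 316 CPM (log2 difference 1.20, SE 0.19, edgeR adjusted p = 2.55e-06). The kainate receptor subunit gene *Grik3* was at 44.4 ± 26.0 against 0.186 ± 0.372 CPM (SD, n = 5) and was the 1 higher gene of 22 tested glutamate receptor genes (edgeR adjusted p = 0.00189), a call lost without JM8. It had too few estimated molecules to be tested on that scale. With 6 UMIs in the PVH sums, *Grik3* passed the filter on low counts through the cluster 6 sums. *Gap43*, a growth-cone protein gene, was at 1622 ± 375 against 667 ± 185 CPM (log2 difference 1.04, SE 0.16, edgeR adjusted p = 1.37e-06). *Coch*, a gene of the extracellular matrix, and *Ecel1*, an endopeptidase gene, were higher on 4 of 5 plates, at 158 ± 169 and 291 ± 244 CPM against 1.06 ± 1.74 and 23.4 ± 21.3 CPM (edgeR adjusted p = 3.00e-07 and 0.000939). *Ecel1* was not particular to cluster 6, and reached 3 UMIs in 27 of 35 cells of PVH cluster 12 and 18 of 25 of cluster 6. *Gap43* and *Coch* belonged to no list and were chosen after their values were seen. Of the 50 higher genes, 28 were higher on all 5 plates.

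*Slc17a6* and some of the factors of the PVH lineage were lower. *Slc17a6* was at 0 in all 5 sums and at 78.6, 96.2, 124, 162 and 250 CPM in the PVH cells of Q5, Q6, Q7, JM6 and JM8, at least 7.84-fold lower against the floor of 18.1 CPM (edgeR adjusted p = 1.51e-10). Of 9 tested PVH lineage factors 4 were lower and none higher, namely *Sim1*, *Pou3f2*, *Nhlh2* and *Lhx5*, with a median log2 difference of -5.53 (-1.41 with genes at 0 set to their bound, beside -1.22 and -0.89 over all genes). Over all tested genes, 8.87% were lower. *Lhx5*, at 0 in cluster 6, was at 14.1 ± 2.56 CPM in the PVH cells, under the floor of 18.1 CPM, and had too few estimated molecules to be tested on that scale. *Sim1* was at 0 on 4 plates and 0.922 CPM on Q7, against 48.1 to 70.2 CPM (edgeR adjusted p = 0.00136). *Pou3f2* was at 0, 23.0, 0.922, 39.3 and 0 CPM against 118 to 193 CPM (edgeR adjusted p = 2.78e-05). *Otp* was at 0, 34.5, 0, 0 and 7.96 CPM against 130 to 1098 CPM, lower on all 5 plates, and missed the threshold on UMIs (edgeR adjusted p = 0.0599) but not on estimated molecules (edgeR adjusted p = 3.71e-32). The 34.5 CPM of Q6 came with the cell that lacked the GABA markers.

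Several peptide genes were lower. Of 24 tested neuropeptide genes 11 were lower and none higher (9 and none on estimated molecules), 3 of the 11 at 0, and 13 did not pass, where 8.87% of all tested genes were lower. *Trh*, thyrotropin-releasing hormone, had 1 UMI in the cluster 6 sums and was at 165, 228, 537, 22.3 and 324 CPM in the PVH cells (edgeR adjusted p = 9.12e-22). *Crh*, corticotropin-releasing hormone, also had 1 UMI, against 69.9 to 391 CPM (edgeR adjusted p = 2.05e-10). *Sst*, somatostatin, was at 14.7, 7.68, 33.2, 4.36 and 0 CPM against 1683, 1648, 2161, 578 and 140 CPM (edgeR adjusted p = 7.36e-54). Most of its cluster 6 values lay under the floor of 18.1 CPM, so no fold is given. *Pdyn* and *Bdnf*, a growth factor kept in this list, were at 0.369 ± 0.824 and 2.69 ± 3.44 CPM against 151 ± 75.7 and 193 ± 79.5 CPM. The PVH sums pool clusters that differ in these genes, and low levels were not particular to cluster 6. As means over cells, *Sst* was at 13712 CPM in cluster 7, 2.76 in cluster 3 and 15.9 in cluster 6. *Crh* was at 1700 CPM in cluster 10 and 0 in cluster 15, and *Trh* at 2678 in cluster 9 and 0 in cluster 4. *Bdnf* was at 2457 CPM in cluster 9 and 0.280 in cluster 2. *Gal*, at 521 ± 1008 against 508 ± 236 CPM, and *Penk*, at 266 ± 548 against 142 ± 74.9 CPM, did not pass (edgeR adjusted p = 0.476 and 0.551), and most of their UMIs lay in the single cells named above.

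*Oxt* and *Avp*, the hormones of the magnocellular neurons, were lower, with log2 differences of -7.44 and -7.32 (SE 0.57 and 0.34, edgeR adjusted p = 0.0109 and 0.00112), yet at least 3 UMIs of *Oxt* were present in 23 of the 25 cells. Wells outside the cell table with fewer than 10000 UMIs held *Oxt* as well. On Q5 these wells had a median of 62 UMIs of *Oxt* (5 wells) and the cells of cluster 6 a median of 89, on Q6 22 and 74, on Q7 20 and 40, on JM6 1 and 3, and on JM8 4 and 4. The plates fell in the same order by both medians. UMIs per molecule also differed, at 23.0 to 32.5 on these Q plates and 6.26 and 10.9 on JM6 and JM8, so the order cannot show a shared source. The source of the low level of *Oxt* in cluster 6 was not tested, and that level was not read as expression.

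Some enzymes that process peptide hormones were lower too. Of 14 tested genes of prohormone processing and granins 6 were lower, 1 was higher and 7 did not pass, with a median log2 difference of -0.43 beside -1.22 over all genes. Lower genes made up 8.87% and higher genes 0.387% of all genes tested. The convertase *Pcsk1* was at 1.13, 9.60, 0.922, 0 and 0 CPM against 174, 163, 156, 145 and 110 CPM (edgeR adjusted p = 5.38e-09), and *Pcsk2* at 1.13, 1.92, 0, 13.1 and 7.96 CPM against 43.2, 71.4, 110, 156 and 198 CPM (edgeR adjusted p = 9.76e-05). For *Pcsk1* and *Pcsk2* the groups lay far apart on every plate. *Pam*, which amidates peptides, was lower by less, at 192 ± 102 against 521 ± 91.3 CPM (log2 difference -1.88, SE 0.28, edgeR adjusted p = 8.23e-06). The PVH clusters differed in these genes too, and a low level of *Pam* was not particular to cluster 6. As means over cells *Pam* was at 716 CPM in cluster 1, 132 in cluster 14 and 172 in cluster 6. *Pcsk1* was at 223 CPM in cluster 1, 21.0 in cluster 15 and 4.10 in cluster 6. The granin *Chga* was the 1 higher member, at 205, 271, 116, 968 and 573 CPM against 48.0, 103, 95.4, 164 and 203 CPM (log2 difference 1.31, SE 0.31, edgeR adjusted p = 0.00451).

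**Figure D4:**
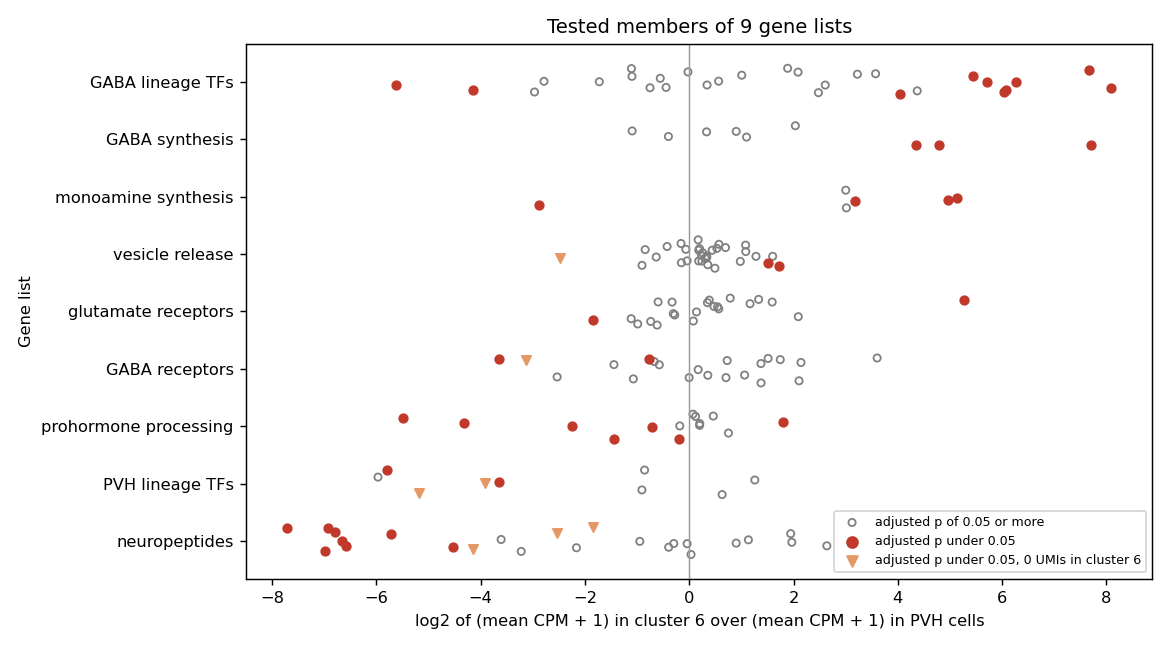
Tested members of 9 gene lists (rows) by the log2 ratio of mean CPM + 1 in cluster 6 to that in the PVH cells, which understates the change of low genes. Filled red points passed an adjusted p of 0.05 (edgeR), orange triangles passed with 0 UMIs in cluster 6, and open circles did not pass: passing members of the GABA lists lie to the right except *Foxp2* and *Nr2f1*, those of the neuropeptide and PVH lineage lists to the left, and most receptor and release genes lie near 0.

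Receptor and channel genes were counted against the 8.87% of all tested genes that were lower. Of 24 tested receptors of neuropeptides and metabolic hormones 4 were lower (*Mc4r*, *Sstr2*, *Galr1* and *Hcrtr1*), 3 of 12 steroid and nuclear receptors were lower (*Esr2*, *Nr3c2* and *Thrb*), and all 7 were at 0 in cluster 6, where the PVH means of 4.56 to 20.5 CPM lay close to or under the floor of 18.1 CPM. No fold is given for them. None of these 7 had enough estimated molecules to be tested on that scale. Of 34 tested potassium channel genes 3 were lower, among them *Kcnip1*, at 36.1 ± 14.9 against 152 ± 32.5 CPM (SD, n = 5, edgeR adjusted p = 0.00722), and of 26 sodium, calcium and HCN channel genes 1 was lower, the calcium channel subunit *Cacna2d1*, at 17.8 ± 27.6 against 162 ± 47.7 CPM (edgeR adjusted p = 1.13e-05). Of 21 tested GABA and glycine receptor genes 3 were lower.

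Other lower genes with the same direction on all 5 plates and the largest fitted differences were *Prdm8*, a transcriptional regulator at 86.6 ± 40.4 CPM in the PVH cells, and *Prph*, which encodes the intermediate filament peripherin, at 80.5 ± 13.9 CPM. Both were at 0 in cluster 6 and at least 4.77-fold and 4.43-fold lower (edgeR adjusted p = 1.47e-05 and 4.69e-05). The same held for *Fign*, at least 3.81-fold lower, *Chil1* and *Ramp1*, at least 2.63-fold and 2.62-fold lower, *Lrriq1*, at least 2.42-fold lower, and for *Hunk*, *Kcnmb4os2* and *Cks1b*, whose bounds were 1.96, 1.96 and 1.82. The last 3 lost the threshold in 8 or 9 of the other settings.

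Cells of neighbouring areas were checked by lists of their genes. Of 6 tested suprachiasmatic genes 2 were higher (*Lhx1* and *Six6*) and 2 lower (*Grp* and *Avp*), where 0.387% of all tested genes were higher and 8.87% lower. The PVH side held the vasopressin clusters 2 to 4, with *Avp* means of 50667 to 71682 CPM, so its call cannot be read for that nucleus. *Vip*, *Nms*, *Prok2* and *Grp*, suprachiasmatic peptide genes, had no UMI in the 25 cells. Of 6 tested genes of the zona incerta and dopaminergic neurons 3 were higher (among them *Slc18a2* and *Slc6a3*), and of 4 tested genes of the thalamic reticular nucleus 2 (*Ecel1* and *Isl1*). Of these higher genes, *Lhx1*, *Six6*, *Slc6a3* and *Isl1* passed the filter on low counts through the cluster 6 sums. *Agrp* and *Npy*, of arcuate AGRP neurons, and *Hcrt* and *Pmch*, of the lateral hypothalamus, had no UMI in the cluster, and *Pomc* reached 3 UMIs in 6 of 25 cells and in 197 of 664 PVH cells (29.7%). No list of a single neighbouring area was found whole in the cluster, and where the cells lay was not recorded per cell. The summed level of 9 oligodendrocyte genes was 52.3 to 307 CPM in cluster 6 and 24 to 78.0 CPM in the PVH cells, higher in cluster 6 on 4 of 5 plates. *Mbp* made up nearly all of it, at 115 ± 89.9 against 29.7 ± 8.41 CPM (edgeR adjusted p = 0.250), while *Opalin* and *Olig2* were at 0, and the part of myelin RNA in the results was not tested.

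Cluster 13, the PVH cluster in which *Gad2* was most frequent, gave the closest comparison. It had at least 3 cells on AL5, AL6 and JM6, of which only JM6 also held 3 cells of cluster 6, so both were compared in a single fit of all plate and cluster sums. Of 13265 genes tested, 9 were higher (0.0678%) and 23 lower (0.173%) in cluster 6, 0.241% in all (edgeR adjusted p under 0.05). On estimated molecules 27 of 3408 were higher (0.792%) and 38 lower (1.12%), 1.91% in all, and without plate JM6 2 were higher. *Gad2* was at 857 ± 357 CPM (SD, n = 5) in cluster 6 and 411 ± 200 CPM (SD, n = 3) in cluster 13, with a fitted log2 difference of -0.36 (SE 1.32, edgeR adjusted p = 1.00), so that neither its direction nor its equality can be read. *Gad1*, *Dlx1*, *Dlx5*, *Six6*, *Gm14204* and *Slc18a2* were at 0 in the 3 sums of cluster 13, as was *Slc32a1*, but none of those tested passed (*Gad1*, edgeR adjusted p = 0.309, and *Dlx1*, 0.434), and *Slc32a1* was not tested.

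The lower genes against cluster 13 included *Slc17a6*, 3 factors of the PVH lineage list (*Otp*, *Lhx5* and *Nhlh2*) and both convertases, beside others of varied function. *Slc17a6* was at 0 in cluster 6 and at 305, 201 and 114 CPM on AL5, AL6 and JM6 in cluster 13 (edgeR adjusted p = 1.32e-09). *Otp* was at 8.50 ± 15 against 1149 ± 569 CPM, *Pcsk1* at 2.33 ± 4.10 against 254 ± 46.2 CPM, *Pcsk2* at 4.82 ± 5.55 against 417 ± 191 CPM and *Bdnf* at 2.69 ± 3.44 against 852 ± 567 CPM, and the groups of plates did not overlap for any of these. *Fam150b* and *Lhx5* were at 0 in cluster 6 and at 161 ± 68.0 and 40.2 ± 46.5 CPM in cluster 13. *Nhlh2*, also at 0 in cluster 6, was at 0 on 1 of the 3 plates of cluster 13, so its plates overlapped. Of the 23 lower genes, 22 were also lower against all PVH clusters.

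The higher genes against cluster 13 were *Chl1*, *Cpe*, *Gadd45g*, *Hsbp1*, *Olfm1*, *Parm1*, *Pcsk1n*, *Prlr* and *Syt1*, and 3 of them were also among the 50. *Syt1* was at 1003 ± 330 CPM (SD, n = 5) against 97.9 ± 43.5 CPM (SD, n = 3), a log2 difference of 3.06 (SE 0.71, edgeR adjusted p = 0.0339). *Prlr*, the prolactin receptor gene, was at 209, 282, 228, 0 and 111 CPM in cluster 6 and at 0 in cluster 13 (edgeR adjusted p = 0.0368). *Parm1* was at 273 ± 314 against 1.79 ± 3.09 CPM (edgeR adjusted p = 0.00697), and *Gadd45g*, a stress-response gene, at 288 ± 287 against 24 ± 18.4 CPM (edgeR adjusted p = 0.0262). *Chl1*, a cell adhesion molecule gene, was at 140 ± 63.3 against 26.2 ± 27.3 CPM (edgeR adjusted p = 0.0158). *Parm1* and *Chl1* did not differ detectably from the PVH clusters as a whole (edgeR adjusted p = 0.343 and 0.650). Of the genes named against cluster 13, *Syt1*, *Prlr*, *Parm1*, *Gadd45g*, *Chl1*, *Bdnf*, *Fam150b* and *Nhlh2* did not pass without JM6, the only plate that held both clusters, and *Lhx5* did not pass without Q5, Q6 or AL5.

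The cells of cluster 6 held fewer genes than the PVH cells of their plates. Averaged per plate, 4430 ± 325 genes (SD, n = 5) were detected in a cell of cluster 6 and 5156 ± 233 in a PVH cell, a difference of -726 ± 302 in the same direction on 5 of 5 plates (exact permutation test swapping both sides within plates, p = 0.062, the smallest that 5 plates allow). With all cells thinned to 54947 UMIs, which left out 23 PVH cells, the difference was -459 ± 206. Total UMIs were lower by 0.131 ± 0.0786 in log10 units on 5 of 5 plates, and ERCC spike-in UMIs per gene UMI were higher, at 19.4% ± 10.1 against 12.6% ± 5.29, also on 5 of 5 plates (exact permutation p = 0.062 for both). On all 7 plates with cells of cluster 6, the 3 differences kept their directions on 7 of 7 plates (exact permutation p = 0.0156, the smallest that 7 plates allow). Against the parvocellular cells alone they were smaller, -235 genes (exact permutation p = 0.250) and -0.0298 in log10 UMIs (exact permutation p = 0.562), and the ERCC difference fell from 0.191 to 0.0808 in log10 units. The magnocellular cells, 175 of the 351 PVH cells on the paired plates, are known for their large cell bodies. The part of cell size in these differences was not tested.

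Cluster 6 was picked more often on some plates than on others. Its share of the cells of a plate averaged 5.21% ± 1.87 over the 4 Q plates and 1.85% ± 2.43 over the 6 other plates (SD, exact permutation test over 210 ways, p = 0.0571), and on JM6 and JM8 it was 4.55% and 5.26%. Of the 25 cells, 7 lay in plate column 11, against 59 of 664 PVH cells. The difference between cluster 6 and the PVH clusters differed between the Q and the JM plates for 11 of 12906 genes (0.0852%, edgeR adjusted p under 0.05), with the signed log2 difference higher on the Q plates for 4 (0.0310%) and lower for 7 (0.0542%), and none of these was a GABA marker or a lineage factor. On estimated molecules it was higher for 1 gene (0.0132%) and lower for 3 (0.0396%), 0.0527% in all. On the Q plates alone 20 genes were higher and 40 lower in cluster 6, and on the JM plates alone, with 2 plates, 7 and 21.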

How the data were processed

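Single neurons were sequenced by a 3′ UMI protocol on 10 plates of 96 wells. Per the labels and the submitters' processing notes, the authors trimmed reads with Trimmomatic 0.36, aligned them with STAR 2.5.3a to GRCm38.p5 and deposited UMI counts per gene and well, as raw counts of 48397 genes and 92 ERCC spike-ins in 960 wells. Cluster labels came from the deposited cell table, in which the authors had clustered the same cells. The counting tool, the strand setting and any correction of UMI errors are not given in the sources used here.

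UMIs were summed per plate and cell group, with at least 3 cells in a sum. Sums were compared by edgeR 4.0.16 (R 4.3.3), with filterByExpr, TMM factors, a quasi-likelihood fit, the plate as a block (taken from the labels) and Benjamini-Hochberg adjustment over all tested genes. The fit against the PVH clusters used the 5 paired plates, and the fit against cluster 13 used 78 sums of plate and cluster. CPM were computed without TMM factors, and SE is that of the fitted log2 difference. Deviations of both sums of a plate from their group means correlated at 0.106 to 0.224. The highest correlation of a cluster 6 sum with the PVH sum of another plate was not much lower, at 0.0674 to 0.189. Alternatives were DESeq2 1.42.0, limma 3.58.1, other scalings and filters, left-out plates, other PVH subsets, and counts divided by the UMIs per molecule, estimated from spike-ins found in 2% to 25% of the cells of a plate. Depth and shares were compared by exact permutation tests, two-sided, with SciPy 1.17.1. Intervals are 95% exact binomial, and limits for 0 use 3 counts. The fits across genes were tested on simulated counts.

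Genes named were the GABA markers, the 10 higher and 10 lower genes of largest fitted difference with the same direction on all 5 plates, the 5 highest and 5 lowest called against cluster 13, and members of the lists of gene families. The members and lists were chosen with earlier results of these data known. Sequences are from RefSeq, GRCm38.p6. Results of some genes are not reported here.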

Additional observations from a re-analysis of the deposited data

Results flagged for a closer look

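The prolactin receptor gene *Prlr* was set apart by 1 plate. Its log2 ratio of cluster 6 to PVH cells on JM6, where it had no UMI, lay apart from those of the other 4 plates by 0.817 of the whole range. A gap past the limit used for flagging is expected by chance in about 1 in 20 groups of values, and 34 groups were tested.

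The difference between cluster 6 and the PVH clusters was not the same on the Q and the JM plates for 11 genes (edgeR interaction term, adjusted p under 0.05). The interaction is the signed log2 difference (cluster 6 minus PVH) on the Q plates minus that on the JM plates. It was positive for *Oxt* (1.65), *Kcnip4* (13.8), *Dhrs7* (12.7) and *Dlk1* (5.18). *Oxt* was lower in cluster 6 on every plate, and less so on the Q plates. *Kcnip4* was at 56.7, 101 and 217 CPM in cluster 6 on Q5, Q6 and Q7 and at 0 on both JM plates, and *Dhrs7* at 170, 137 and 243 CPM and at 0, so that their fitted values are set by the zeros and are no sizes.

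The interaction was negative for the other 7, with fitted values of -1.23 for *Resp18*, -3.32 for *Calb1*, -7.08 for *Tac1*, -9.25 for *Chrm2*, -7.18 for *Sec61a1*, -6.93 for *Sncg* and -4.25 for *Gal*. *Tac1* and *Sncg* were high on JM6 alone, at 1692 and 742 CPM, and *Gal* on JM8, at 2319 CPM, most of it in 1 cell. *Chrm2* was at 153 and 274 CPM on JM6 and JM8 and at most at 0.922 CPM on the Q plates. For genes at or near 0 on one side of the plates these fitted values are no sizes either. *Resp18* was lower in cluster 6 on the Q plates and close to the PVH level on the JM plates. It was at 4595 to 5312 CPM in the PVH cells of the Q plates, at 2484 and 2371 CPM in those of JM6 and JM8, and at 2016 to 2685 CPM in cluster 6. With 2 JM plates and 7 cells on them, which share of these differences lies in single cells was not tested.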

How the results depend on the processing

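Against the PVH clusters, 50 genes were higher and 1145 lower. The counts were 127 higher with DESeq2, 77 and 723 with RLE size factors, 80 and 650 with total UMIs alone, and 227 lower with no filter on low counts. Without the replicate block they were 29 and 376. Leaving out 1 plate gave 25 to 38 higher and 81 to 161 lower genes. All plates with at least 1 cell gave 2503 lower, the parvocellular clusters alone 14 and 31, cells thinned to equal UMIs 262 lower, estimated molecules 370 lower, voom 276 lower, and PVH clusters weighted equally 184 and 138. The Q plates alone gave 20 and 40 and the JM plates alone 7 and 21.

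Against cluster 13, 9 and 23 genes became 658 and 402 with DESeq2, 48 and 73 with no filter, 15 higher without the replicate block, 27 and 38 on estimated molecules and 4 and 9 on the JM plates alone. Leaving out 1 plate gave 2 to 11 higher (5 without Q5, 2 without JM6, 4 without AL5, 3 without AL6) and 12 to 22 lower genes (15 without Q5, 12 without AL5). The 4 and 7 genes that differed between Q and JM plates became 12 and 16 with DESeq2, 2 lower with no filter, and 1 and 3 on estimated molecules. On all 7 plates the depth differences were -0.157 in log10 UMIs, -783 genes and 0.172 in log10 ERCC share. *Gad2* was found in 100% of the cells on AL and JM plates, and *Sim1* in 0% there and in 0% at 3 UMIs or more. Apart from smaller numbers of plates or genes tested, the causes were not tested.

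Of the values of named genes under other settings, 388 stayed on the same side of the threshold, 113 no longer passed and 0 reversed. The median log2 difference over all genes was -1.22 with TMM and -0.98 and -0.96 with the other scalings, a shift of 0.24 and 0.26, and 4.18% of calls were higher with TMM against 9.63% and 11%. Levels under 18.1 CPM in cluster 6 could not be told from 0.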
